A study of Mus musculus with 6 samples.

Results

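*Rcn1* and 4 related genes, *Rcn2*, *Rcn3*, *Calu* and *Sdf4*, encode the CREC family of calcium-binding proteins, named after Cab45, reticulocalbin, ERC-55 and calumenin. *Rcn1* was chosen by its difference between treatments in these libraries, so its difference is given as a description without a test, and the other 4 genes were chosen because they belong to the same family. All 5 symbols are listed, each as 1 gene, in the table of log2 CPM (read counts scaled to the library size) of 13886 protein-coding genes, and 0 members are missing from it. The RNA came from the medial amygdala (MeA) of Kiss1Cre+/Rpl22HA+/+ female mice, called KissRibo, in which Cre made under the control of *Kiss1* adds a hemagglutinin (HA) tag to the ribosomal protein Rpl22, so that tagged ribosomes and the RNA on them can be immunoprecipitated (RiboTag). Every female had been ovariectomized (OVX) when 8 weeks old, pre-treated with a capsule of estradiol (E2) for 4 days and then given 7 days without E2. The E2 group next carried a new E2 capsule for 5 days and the OVX group carried none. Each library held the MeA micro-punches of 1 pool of 4 mice, with 3 libraries in the OVX and 3 in the E2 group. *Kiss1* itself responds to E2, so the promoter that drives Cre is also a target of the treatment, and only immunoprecipitated RNA from Cre-positive females was used here.

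CREC proteins reside in the lumen of the secretory pathway and bind calcium with low affinity through several EF-hand loops. Reticulocalbins (*Rcn1*, *Rcn2*, *Rcn3*) stay in the endoplasmic reticulum (ER), calumenin (*Calu*) is found in the ER and is also secreted, and Cab45 (*Sdf4*, stromal cell derived factor 4) is a soluble protein of the Golgi that takes part in sorting secreted cargo. ER residents of this kind end in a short C-terminal signal that KDEL receptors recognise in the Golgi, from where they are carried back.

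The ends of the 5 coding sequences are shown because a signal of this kind would lie there. The last 4 codons read His-Asp-Glu-Leu in *Rcn1*, *Rcn2* and *Rcn3*, His-Asp-Glu-Phe in *Calu* and His-Glu-Glu-Phe in *Sdf4*. Whether each of these ends serves as such a signal was not tested. Each line gives the last 39 bases of the longest coding sequence in GENCODE mouse release 21, 5′ to 3′ on the gene's own strand, with the last 4 codons before the stop codon in capitals and the stop codon in lower case.
Rcn1 (chr2:105387919-105387957, GRCm38, minus strand): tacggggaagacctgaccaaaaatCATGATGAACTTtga
Rcn2 (chr9:56058173-56058211, GRCm38, plus strand): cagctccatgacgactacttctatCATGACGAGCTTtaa
Rcn3 (chr7:45083256-45083294, GRCm38, minus strand): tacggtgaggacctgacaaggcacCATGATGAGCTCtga
Calu (chr6:29374465-29374503, GRCm38, plus strand): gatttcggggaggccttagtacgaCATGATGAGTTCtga
Sdf4 (chr4:156009912-156009950, GRCm38, plus strand): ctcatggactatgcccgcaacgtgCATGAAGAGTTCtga

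All 5 stretches lie within 1 exon. In the 12 capital bases *Rcn1* shared 10 with *Rcn2*, 10 with *Rcn3*, 9 with *Calu* and 8 with *Sdf4*. Over the whole coding sequence, in a global alignment, *Rcn1* was 64.0% identical to *Calu*, 62.9% to *Rcn3*, 56.9% to *Rcn2* and 52.8% to *Sdf4*. The least alike pair was *Rcn2* and *Sdf4* (50.0%). The order of likeness in sequence put *Calu* and *Rcn3* nearest to *Rcn1*, ahead of the other reticulocalbin, *Rcn2*.

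Reads could be assigned to *Rcn1*, *Rcn2* and *Sdf4* with little ambiguity. Of the 75-base words in the protein-coding transcripts, 0% for *Rcn1*, 0% for *Rcn2* and 0.142% for *Sdf4* also occurred in transcripts of other genes. For *Rcn3* it was 10.6%, and 290 of its exonic bases lie opposite the antisense gene Gm45669. For *Calu* it was 7.95%, and 397 of its exonic bases lie opposite *Opn1sw*, the gene of a cone opsin. The library kit kept no strand, and neither Gm45669 nor *Opn1sw* is listed, so reads from these bases cannot be told apart.

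The libraries had TMM-scaled sizes of 28.1M to 34.2M reads, and their correlations across genes, which are not independent replicates, ran from 0.977 to 0.989. *Kiss1*, the defining gene of the labelled cells, is listed as 2 overlapping gene models. ENSMUSG00000115958 had log2 CPM of 1.13 to 2.29 in OVX and 3.45 to 3.80 in E2 libraries. ENSMUSG00000116158 had -5.82 to 0.10 in OVX and 2.65 to 3.18 in E2 libraries, where -5.82 is the lowest value of OVX replicate 1. The level and difference of *Kiss1* thus depend on the model. All 6 neuronal markers were listed, but so were all 8 markers of astrocytes, oligodendrocytes, microglia, endothelial and mural cells, so the libraries held RNA of cells other than neurons. OVX replicate 2 stood apart in anterior pituitary markers, with a summed level of 1029 CPM against 2.02 to 228 CPM in the other 5 libraries.

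*Rcn1* (ENSMUSG00000005973, chromosome 2 from 105386291 to 105399319, minus strand) encodes reticulocalbin 1, a soluble protein of the ER lumen. It had log2 CPM of 5.93, 5.70 and 5.99 in OVX replicates 1, 2 and 3. In E2 replicates 1, 2 and 3 it had 7.04, 6.86 and 6.70. The lowest E2 library was 0.71 above the highest OVX library, and the ranges within a group were 0.29 in OVX and 0.34 in E2. The means were 5.87 ± 0.15 (SD, n = 3) and 6.87 ± 0.17 (SD, n = 3), a difference of 0.995 (SE 0.09), which is 1.99-fold. On the linear scale this was 58.8 CPM (SD 6.13, n = 3) in OVX and 117 CPM (SD 13.7, n = 3) in E2 libraries. With each library left out in turn the difference was between 0.91 and 1.08. It was 0.91 both without OVX replicate 2, the library highest in pituitary markers, and without E2 replicate 1.

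These values chose the gene, so nothing further is read from them. In libraries of this kind, a change in the RNA per tagged cell and a change in the share of tagged cells that hold the RNA cannot be told apart. The pools are separate sets of mice, and for 3 libraries against 3 the smallest p that an exact permutation test allows is 0.1.

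**Figure D1:**
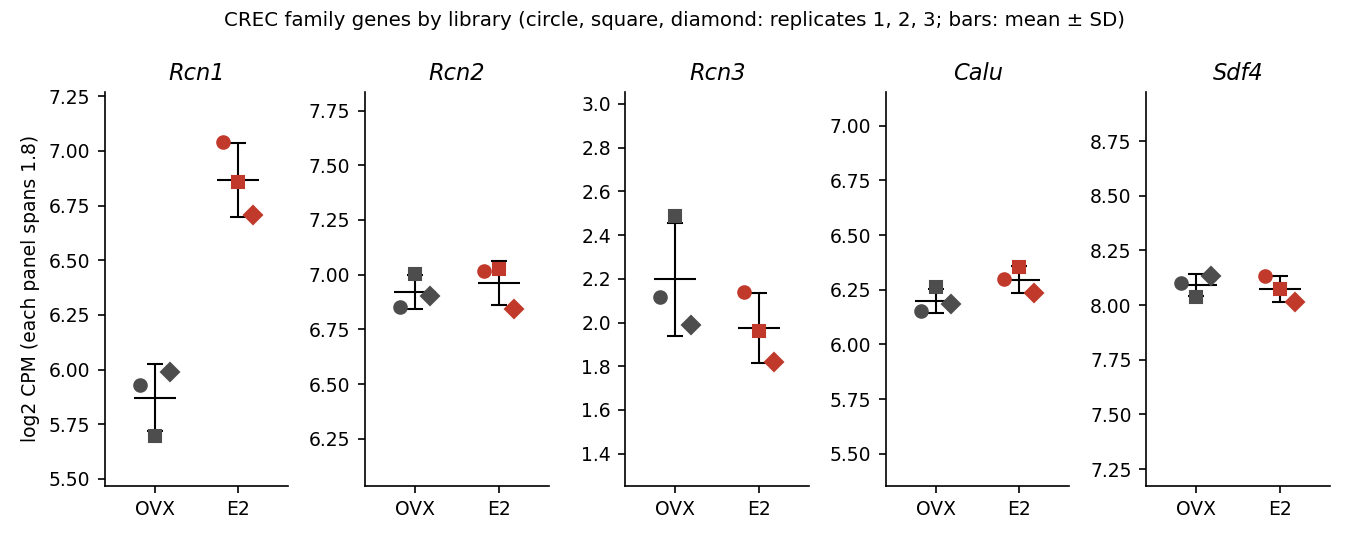
Log2 CPM of the 5 CREC genes in each library, with OVX libraries in grey and E2 libraries in red, replicates 1, 2 and 3 as circle, square and diamond, and bars for the mean ± SD of 3 libraries. Every panel spans the same width of 1.8 on the log2 scale. For *Rcn1* the E2 libraries lay between 6.70 and 7.04 and the OVX libraries between 5.70 and 5.99, and for the other 4 genes the groups overlapped.

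Of the 5 members, 1 (*Rcn1*) had groups that did not overlap, where this was so for 13.7% of all listed genes. That count contains the value that chose *Rcn1* and says nothing about the family. Over all genes, 0.288% were past the threshold of an adjusted p of 0.05 in limma (40 of 13886, 32 higher and 8 lower with E2), and without the mean-variance trend of limma 0 genes were, with 1017 at an unadjusted p under 0.05. Among the 4 members chosen by family, 0 were past the threshold in limma and 0 had an unadjusted p under 0.05, which 8.56% of all genes had.

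*Rcn2* (ENSMUSG00000032320, chromosome 9 from 56041845 to 56061882, plus strand) encodes reticulocalbin 2, also called ERC-55. It had log2 CPM of 6.85, 7.0 and 6.90 in OVX and 7.01, 7.03 and 6.85 in E2 libraries. The lowest E2 library lay level with the lowest OVX library, and the groups overlapped over most of their range. The difference was 0.04 (SE 0.07, 95% interval from -0.10 to 0.19, limma adjusted p = 0.927).

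*Rcn3* (ENSMUSG00000019539, chromosome 7 from 45082913 to 45092221, minus strand) encodes reticulocalbin 3, an ER protein known from lung and from cells that make collagen. It had log2 CPM of 2.12, 2.49 and 1.99 in OVX and 2.14, 1.96 and 1.82 in E2 libraries. The highest library was OVX replicate 2 and the lowest E2 replicate 3, with the groups overlapping between. The difference was -0.22 (SE 0.23, 95% interval from -0.72 to 0.28, limma adjusted p = 0.865), and without OVX replicate 2 it was -0.08. The interval was the widest of the 5 genes, and a fall to 0.61 of the OVX level lies within it.

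*Calu* (ENSMUSG00000029767, chromosome 6 from 29348069 to 29377110, plus strand) encodes calumenin, which inhibits vitamin K-dependent carboxylation and regulates calcium release in muscle. It had log2 CPM of 6.15, 6.26 and 6.19 in OVX and 6.30, 6.36 and 6.23 in E2 libraries. E2 replicate 3 lay below OVX replicate 2, and the other E2 libraries lay above all 3 OVX libraries. The difference was 0.10 (SE 0.07, 95% interval from -0.05 to 0.24, limma adjusted p = 0.762).

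*Sdf4* (ENSMUSG00000029076, chromosome 4 from 155992872 to 156013610, plus strand) encodes Cab45. It had log2 CPM of 8.10, 8.04 and 8.13 in OVX and 8.13, 8.07 and 8.01 in E2 libraries. All 6 libraries lay within a range of 0.12. The difference was -0.02 (SE 0.06, 95% interval from -0.14 to 0.10, limma adjusted p = 0.969), and its sign turned when E2 replicate 3 (0.01) or OVX replicate 3 (0.003) was left out.

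For these 4 members the upper bounds of the 95% intervals were 0.10 to 0.28 on the log2 scale, or 1.07-fold to 1.21-fold. The SE of *Rcn2*, *Calu* and *Sdf4* was below the median SE of all genes (0.11) and that of *Rcn3*, the member with the lowest level, was above it. Whether the difference of *Rcn1* departs from those of the other members was not tested, since *Rcn1* was selected on it.

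**Figure D2:**
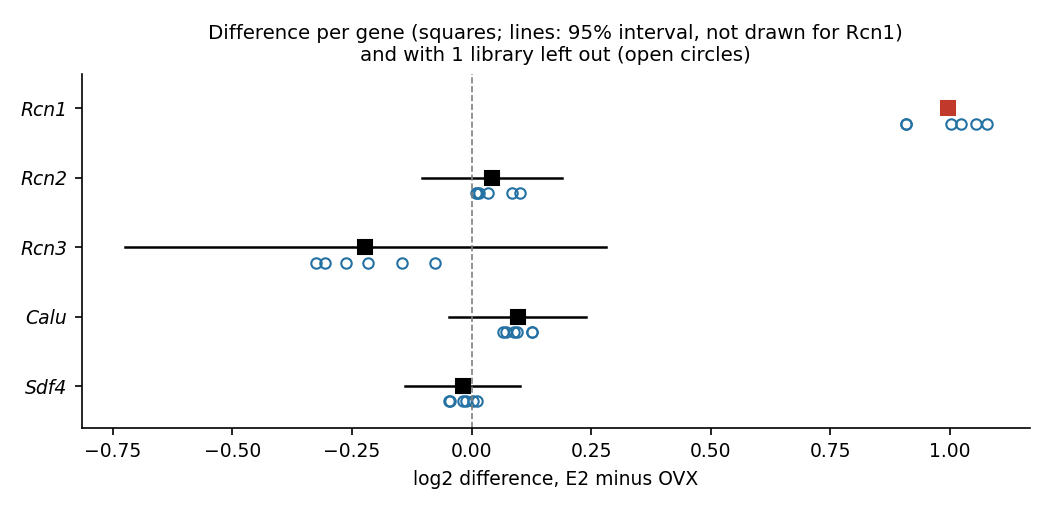
E2 minus OVX difference of each CREC gene on the log2 scale (squares), with the 95% interval from limma for the 4 genes chosen by family (lines) and the differences with 1 library left out (open circles). *Rcn1*, drawn in red without an interval because it was chosen by this difference, had values of 0.91 to 1.08 with 1 library left out, and the intervals of the other 4 genes all include 0.

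The level of each gene was compared with that of the others as CPM per kilobase of its longest annotated transcript. By the mean of the 6 libraries *Sdf4* had 52.4 CPM per kilobase (range 50.0 to 54.2) and *Rcn2* had 39.9 (range 37.3 to 42.3). These ranges did not overlap. *Rcn1* followed with 32.4 (range 19.1 to 48.4), *Calu* with 23.6 (range 22.0 to 25.4) and *Rcn3* with 2.94 (range 2.42 to 3.83). The range of *Rcn3* lay apart from that of *Calu*, while *Rcn1* overlapped both of its neighbours in the order.

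Per kilobase of the longest transcript, the place of *Rcn1* in that order differed by group. *Rcn2* was above *Rcn1* in 3 of 3 OVX and 0 of 3 E2 libraries, and *Rcn1* was above *Calu* in 2 of 3 OVX and 3 of 3 E2 libraries. In OVX libraries *Rcn1* (21.6 ± 2.25 CPM per kilobase, SD, n = 3) and *Calu* (22.8 ± 0.887, SD, n = 3) differed by less than their spread. In E2 libraries *Rcn1* (43.1 ± 5.05, SD, n = 3) and *Rcn2* (40.5 ± 2.78, SD, n = 3) did so too. Neither holds by every length, as the next values show, and these are descriptions, as they rest on the values that chose *Rcn1*.

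The length used changed these comparisons. The longest transcript of *Rcn2*, of 3080 bases, is annotated as a target of nonsense-mediated decay, and its longest protein-coding transcript has 2024 bases. The longest transcript of each of the other 4 genes is protein-coding. Per kilobase of the longest protein-coding transcript *Rcn2* had 60.8 CPM (range 56.8 to 64.4) and stood above *Sdf4* in 6 of 6 libraries. By that length *Rcn1* stayed below *Rcn2* in E2 libraries as well, at 38.4 to 48.4 against 56.8 to 64.4 CPM per kilobase. Per kilobase of coding sequence *Sdf4* was again above *Rcn2* in 6 of 6 libraries, and *Rcn2* was above *Rcn1* in 5 of 6. By that length *Rcn1* was below *Calu* in OVX libraries, at 60.1 (SD 6.27) against 77.6 (SD 3.02) CPM per kilobase, and above it in 3 of 3 E2 libraries. By the mean of the 6 libraries *Sdf4* and *Rcn2* held the 2 highest places by all 3 lengths and *Rcn3* the lowest, but which of *Sdf4* and *Rcn2* is first depends on the length.

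**Figure D3:**
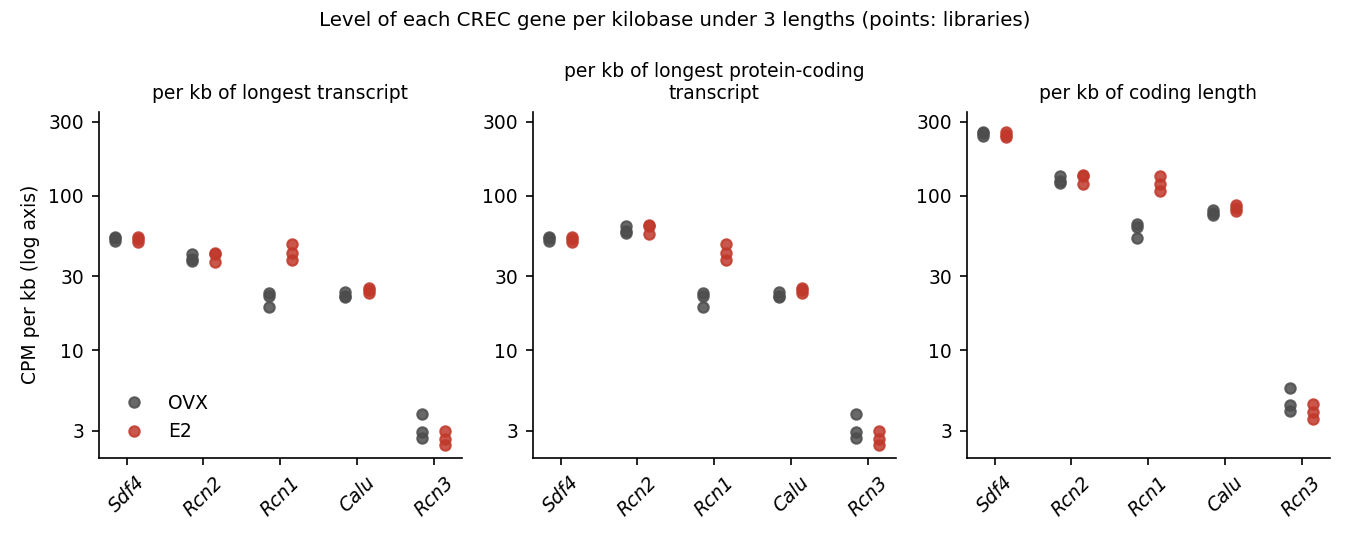
CPM per kilobase (log axis) of each CREC gene in each library, with OVX in grey and E2 in red, by the longest annotated transcript, the longest protein-coding transcript and the coding length. *Rcn3* lay lowest by all 3 lengths, and *Rcn2* moved from 39.9 to 60.8 CPM per kilobase between the first and the second panel.

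The family was also summed. The CPM of the 5 genes together came to 527, 525 and 541 in OVX and to 624, 601 and 557 in E2 libraries. Without *Rcn1* the sums were 466, 473 and 477 in OVX and 493, 485 and 452 in E2 libraries, and the groups overlapped. Of the family sum per kilobase of longest transcript, *Rcn1* held 15.5% (SD 1.53) in the 3 OVX and 26.4% (SD 1.51) in the 3 E2 libraries. *Sdf4* held 37.7% ± 1.10 (SD, n = 3) and 32.0% ± 0.861 (SD, n = 3), with a level of its own that stayed within the spread between libraries.

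The proteins that act beside the CREC family were described with 7 lists: ER chaperones, disulfide isomerases and oxidases, calcium pumps and channels, other calcium-binding proteins of the secretory lumen, receptors for ER residents and cargo, the unfolded protein response and vitamin K carboxylation. Of 107 genes named, 97 were listed. None of the 97 was past the threshold in limma (0 higher and 0 lower, and also 0 with voom weights on rebuilt counts), and 7 had an unadjusted p under 0.05, or 7.22% against 8.56% of all genes. Groups did not overlap for 11 of the 97 (5 higher and 6 lower), or 11.3% against the 13.7% of all genes. The median difference was 0.01, against 0.003 for all genes, and the differences ran from -0.28 to 0.37.

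All 15 ER chaperones were listed, with differences from -0.10 to 0.16 and a median of 0.03. *Hspa5*, the gene of the ER Hsp70 chaperone BiP, had 8.75, 8.66 and 8.82 in OVX and 8.71, 8.81 and 8.60 in E2 libraries (difference -0.04, SE 0.06, limma adjusted p = 0.931). The groups overlapped throughout. *Calr*, the gene of calreticulin, a high-capacity calcium buffer of the ER, differed by 0.03 (SE 0.06, limma adjusted p = 0.936). The smallest p-values of the list belonged to the BiP co-chaperone *Dnajc10* (-0.07, SE 0.06, limma adjusted p = 0.845) and the calnexin relative *Clgn* (0.16, SE 0.16, limma adjusted p = 0.845).

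Of 18 disulfide isomerases and oxidases 16 were listed (*Pdia2* and *Erp27* were not), with differences from -0.13 to 0.10 and a median of -0.03. *P4hb*, the gene of protein disulfide isomerase, differed by 0.02 (SE 0.06, limma adjusted p = 0.957). *Pdia3*, the partner of calreticulin and calnexin, differed by 0.03 (SE 0.06, limma adjusted p = 0.943). The smallest p-values were those of *Tmx1* (0.10, SE 0.08, limma adjusted p = 0.805), a thioredoxin-like protein of the ER membrane, and *Creld1* (-0.07, SE 0.07, limma adjusted p = 0.843).

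Of 20 pumps and channels 17 were listed (*Atp2a1*, *Pln* and *Sln*, known from muscle, were not), with differences from -0.12 to 0.19 and a median of 0.01. *Atp2c1*, the gene of the Golgi calcium pump SPCA1 that acts with Cab45 in cargo sorting, had 6.91, 6.91 and 6.93 in OVX and 6.84, 6.78 and 6.79 in E2 libraries. All 3 E2 libraries lay below all 3 OVX libraries, and the difference of -0.12 (SE 0.06) had a limma adjusted p of 0.604. *Itpr1*, the gene of an inositol trisphosphate receptor that releases ER calcium, differed by -0.11 (SE 0.06, limma adjusted p = 0.620). *Atp2a2*, the gene of the ER calcium pump SERCA2, differed by -0.03 (SE 0.05, limma adjusted p = 0.938).

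Of 17 other lumenal or secreted calcium-binding proteins 15 were listed (*Fkbp7* and *Casq1* were not). This list held 5 of the 7 genes with an unadjusted p under 0.05, which is 5 of its 15 genes against 8.56% of all genes, and its differences ran from -0.28 to 0.35 with 8 of 15 above 0. *Sparc*, a secreted glycoprotein with EF-hands, had 6.94, 7.27 and 6.93 in OVX and 7.50, 7.23 and 7.34 in E2 libraries. Only OVX replicate 2 reached into the E2 range, and the difference of 0.31 (SE 0.09, limma adjusted p = 0.282) became 0.42 (SE 0.08, limma adjusted p = 0.0360) without that library. *Spock3*, a related proteoglycan, differed by 0.28 (SE 0.09, limma adjusted p = 0.334), with groups that did not overlap. The others, named after their values were seen, were *Spock1* (0.13, SE 0.06, limma adjusted p = 0.544), higher in all 3 E2 libraries, and *Smoc1* (-0.28, SE 0.11, limma adjusted p = 0.486) and *Spock2* (-0.14, SE 0.05, limma adjusted p = 0.465), lower in all 3 E2 libraries than in all 3 OVX libraries. The nucleobindins *Nucb1* (-0.05, SE 0.06, limma adjusted p = 0.875) and *Nucb2* (0.00, SE 0.12, limma adjusted p = 1.0), EF-hand proteins of the Golgi and secretory pathway, differed by less than 1 SE.

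Of 10 receptors for ER residents and cargo 9 were listed (*Kdelr3* was not), with differences from -0.16 to 0.09 and a median of 0.01. *Kdelr1* (-0.02, SE 0.07, limma adjusted p = 0.970) and *Kdelr2* (-0.02, SE 0.11, limma adjusted p = 0.986), which bind C-terminal signals of ER residents, both had overlapping groups. The smallest p-values were those of *Lman2l* (-0.16, SE 0.08, limma adjusted p = 0.607), a lectin of the early secretory pathway, and *Tmed2* (0.08, SE 0.08, limma adjusted p = 0.838), a cargo receptor of transport vesicles.

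Of 18 genes of the unfolded protein response, the programme that raises ER chaperones when unfolded proteins build up, 17 were listed (*Trib3* was not). Their differences ran from -0.27 to 0.37, with a median of -0.002. *Xbp1* (0.04, SE 0.07, limma adjusted p = 0.931) and *Atf4* (0.04, SE 0.07, limma adjusted p = 0.931), transcription factors of its main branches, had overlapping groups. *Herpud1* (-0.15, SE 0.07, limma adjusted p = 0.538) and *Sel1l* (-0.12, SE 0.05, limma adjusted p = 0.583), which serve ER-associated degradation, had the smallest p-values, with all 3 E2 libraries below all 3 OVX libraries.

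Of 9 genes of vitamin K carboxylation 8 were listed (*Prrg4* was not), with a median difference of 0.10. *Ggcx*, the gene of the carboxylase that calumenin inhibits, had 3.50, 3.18 and 3.82 in OVX and 3.88, 3.72 and 3.57 in E2 libraries. The groups overlapped and the difference was 0.22 (SE 0.17, limma adjusted p = 0.796). *Gas6*, a carboxylated ligand of receptor tyrosine kinases, differed by 0.13 (SE 0.08, limma adjusted p = 0.716), and *Vkorc1*, the gene of the warfarin-sensitive vitamin K epoxide reductase, by -0.22 (SE 0.16, limma adjusted p = 0.785).

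**Figure D4:**
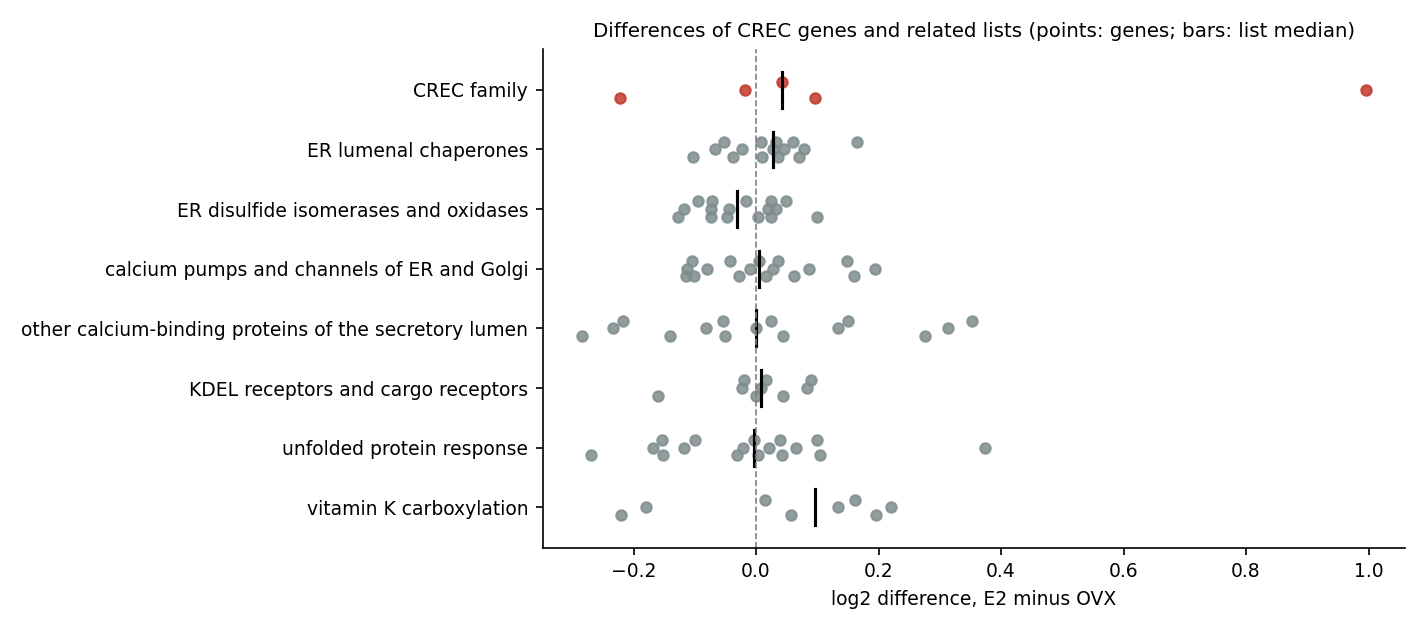
E2 minus OVX differences on the log2 scale for the 5 CREC genes (red) and the listed genes of 7 related lists (grey), with a bar at the median of each row. *Rcn1* is the point at 0.995, and the 97 genes of the 7 lists lie between -0.28 and 0.37.

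The genes most like *Rcn1* over the 6 libraries were found by the root mean square distance between profiles of log2 CPM, each centred on its own mean. Over these 6 libraries the nearest were *Adamtsl3* (0.12), *Ecel1* (0.14), *Rasd1* (0.14), *P2rx5* (0.15) and *Lmcd1* (0.16). They are given as descriptions, since a profile like that of *Rcn1* has to differ between the groups. *Ecel1*, a membrane metallopeptidase of neurons, had log2 CPM of 6.15, 6.25 and 6.45 in OVX and 7.63, 7.33 and 7.35 in E2 libraries. *Rasd1*, a Ras-like protein induced by steroids, had 2.69, 2.75 and 2.77 in OVX and 4.00, 3.99 and 3.68 in E2 libraries. In both genes the lowest E2 library lay above all OVX libraries, by more than the range within either group. *Lmcd1* had group means of 2.79 and 3.76, *P2rx5* of 0.26 and 1.03, and *Adamtsl3* of -0.30 and 0.65, so the last 2 had levels near 1 CPM.

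No other CREC gene was among the nearest. The distance rests on the values that chose *Rcn1*, so a gene without a like difference between groups cannot be near. The ranks are descriptions and say nothing further about the family. By the same distance, ranked over the other 13885 genes, *Calu* was at rank 2397 (0.47), *Rcn2* at 4026 (0.50), *Sdf4* at 5450 (0.51) and *Rcn3* at 12303 (0.65).

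Within 500 kb of *Rcn1* on chromosome 2, 4 of 7 protein-coding genes were listed. *Pax6*, a transcription factor of eye and forebrain development 270 kb away, had 2.53, 3.11 and 2.13 in OVX and 2.88, 3.10 and 3.32 in E2 libraries. Its groups overlapped, and the difference was 0.51 (SE 0.24, limma adjusted p = 0.581). *Elp4*, of the Elongator complex, differed by 0.04 (SE 0.16, limma adjusted p = 0.980), *Eif3m*, a subunit of a translation initiation factor, by 0.02 (SE 0.08, limma adjusted p = 0.984) and *Ccdc73* by 0.18 (SE 0.18, limma adjusted p = 0.858). *Them7*, the gene nearest to *Rcn1* with a gap of 6.5 kb, *Wt1* and Gm11060 were not listed, so their levels are not known.

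Markers of other cell types were set beside *Rcn1*. In 2 of 11 marker lists the summed levels of the groups did not overlap. The erythroid list, with 4 of 5 genes listed (*Hbb-bs* was not), summed to 121 to 228 CPM in OVX and 280 to 447 CPM in E2 libraries. All 4 genes had groups that did not overlap, where this was so for 13.7% of all listed genes. As markers of 1 cell type they are not separate observations. *Hba-a1* and *Hba-a2*, near-identical genes of alpha globin between which reads can be split, were higher by 1.01 (SE 0.16, limma adjusted p = 0.0124) and 1.04 (SE 0.20, limma adjusted p = 0.0469). *Hbb-bt*, a beta globin gene, differed by 1.08 (limma adjusted p = 0.117) and *Alas2*, of heme synthesis in red cells, by 1.69 (limma adjusted p = 0.251).

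Within the E2 group the erythroid sum was 280, 347 and 447 CPM in replicates 1, 2 and 3, where *Rcn1* had 7.04, 6.86 and 6.70. Within the OVX group the sum was 121, 228 and 180 CPM, where *Rcn1* had 5.93, 5.70 and 5.99. These are descriptions over 3 libraries per group, and the relation was not tested. The list for excitatory neurons of forebrain regions other than the MeA held 5 genes, all listed. It summed to 1128, 952 and 876 CPM in OVX and 722, 663 and 866 CPM in E2 replicates 1, 2 and 3. The paper counts *Slc17a7* (Vglut1), 1 of the 5, among transcripts of MeA *Kiss1* cells, so this gene does not mark other regions only. All 5 genes had differences below 0, with -0.05 for *Tbr1*, -0.35 for *Neurod2*, -0.54 for *Neurod6* and -0.58 for *Emx1*. The vesicular glutamate transporter *Slc17a7* differed by -0.42 (SE 0.11, limma adjusted p = 0.174), with groups that did not overlap, as for 13.7% of all genes. Of the 5, 4 had an unadjusted p under 0.05 in limma, against 8.56% of all genes, and 0 were past the threshold.

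For fibroblasts and meninges, 7 of 8 markers were listed (*Lum* was not), and the sums overlapped at 99.4 to 155 CPM in OVX and 110 to 163 CPM in E2 libraries. In that list *Col1a1*, a collagen chain, was past the threshold (1.18, SE 0.22, limma adjusted p = 0.0469), and *Pdgfra*, a growth factor receptor also found in oligodendrocyte precursors, had groups that did not overlap (0.54, SE 0.11, limma adjusted p = 0.0838). The collagen genes *Col1a2* (0.00, SE 0.26) and *Col3a1* (-0.17, SE 0.31) had overlapping groups. All 6 choroid plexus markers had differences below 0, with a median of -0.50 and 2 at an unadjusted p under 0.05, and their sums overlapped at 687 to 1076 CPM in OVX and 395 to 1014 CPM in E2 libraries. In this list and the other 7 the sums overlapped and 0 genes were past the threshold. Among those 7, differences were above 0 for 7 of 8 astrocyte, 7 of 8 oligodendrocyte, 7 of 8 endothelial and 6 of 8 mural markers. The same held for 3 of 6 neuronal, 2 of 8 microglial and 1 of 3 listed pituitary markers, and for 51.1% of all genes. The part of these markers in the difference of *Rcn1* was not tested.

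**Figure D5:**
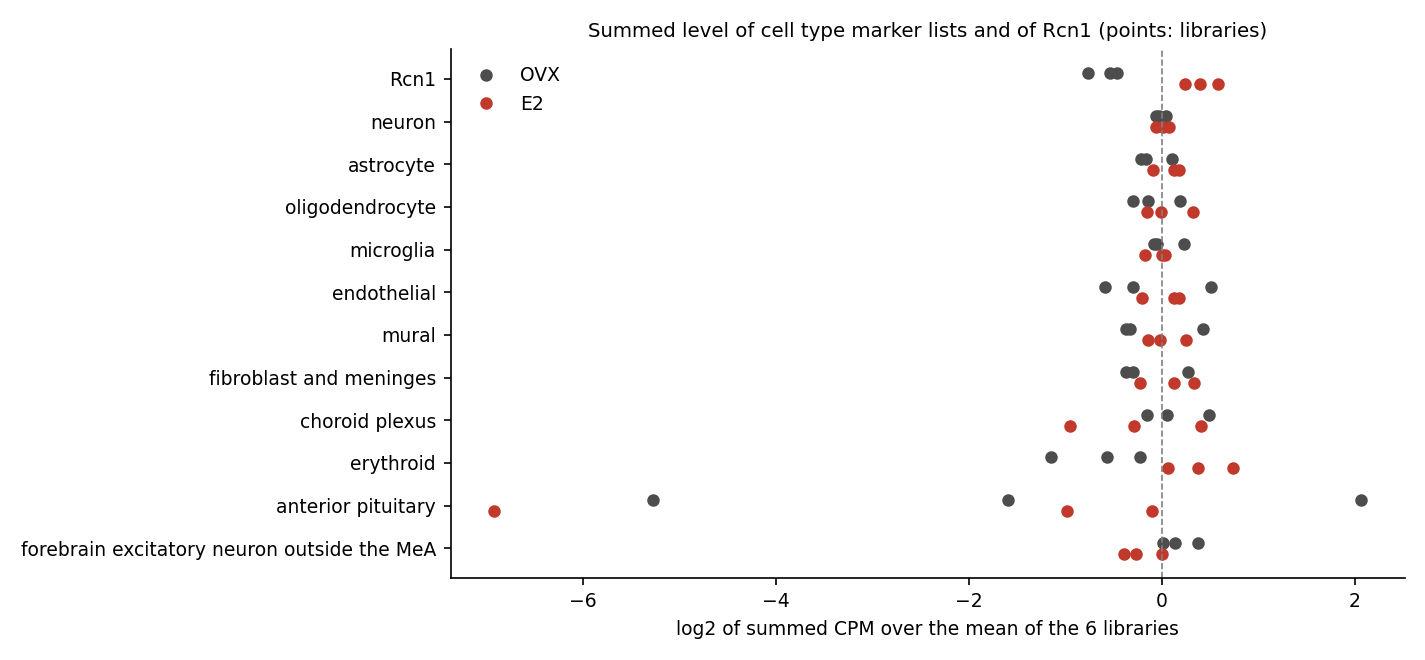
Summed CPM of each marker list, and CPM of *Rcn1*, in each library, as log2 of the ratio to the mean of the 6 libraries, with OVX in grey and E2 in red. The groups lie apart for *Rcn1*, erythroid markers (higher in E2) and forebrain excitatory markers (lower in E2), and the anterior pituitary list is spread from 2.02 to 1029 CPM.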

How the data were processed

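RNA was measured in 6 RiboTag immunoprecipitates (3 OVX, 3 E2). The authors trimmed reads with Trimmomatic 0.38, aligned them with STAR 2.6.0a and quantified them with RSEM on GRCm38 (Ensembl release 98), kept protein-coding genes above a CPM minimum, applied TMM scaling and voom, and deposited log2 CPM per gene and library. Their table of comparisons (log2 fold changes, moderated statistics, p-values and group means) was not used.

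All 13886 genes were fitted with limma 3.58.1 in R 4.3.3, with a mean-variance trend and treatment as the only term. P-values were 2-sided and adjusted by Benjamini-Hochberg over all genes, with 0.05 as the threshold. Because the deposited values lack voom weights, voom on counts rebuilt from them was an alternative. Scaled library sizes were 28.1M to 34.2M, and errors rest on 3 pools per group. GENCODE mouse release 21, the same assembly but another release, gave positions and sequences, with alignments by Biopython 1.88.

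The members and lists were chosen with earlier results of these data known. Genes named are the members, called list genes, the 2 with the smallest p and up to 2 well-known genes of other lists, the 5 most like *Rcn1*, listed protein-coding genes within 500 kb of it, and markers of lists that moved. A marker of 1 list is not reported here. The order per kilobase of the longest protein-coding transcript was added after seeing the data.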

Additional observations from a re-analysis of the deposited data

How the results depend on the processing

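The difference of *Rcn1* was between 0.91 and 1.08 in the 14 alternatives, given as a description since it chose the gene. Fits without the trend, with robust variances, with a filter on mean level or with a replicate block cannot move the difference of any gene. *Rcn2* (0.01 to 0.10), *Rcn3* (-0.33 to -0.08) and *Calu* (0.07 to 0.13) kept their sign and stayed short of the threshold in all 14. *Sdf4* (-0.0475 to 0.0106) changed sign without OVX replicate 3 (0.00273) and without E2 replicate 3 (0.0106), with limma adjusted p-values of 0.868 to 0.997 over the 14. The count of genes past the threshold, 40 in all, was 0 without the mean-variance trend and between 20 and 66 with 1 library left out: 21 without OVX replicate 1, 26 without E2 replicate 1, 20 without E2 replicate 2 and 66 without E2 replicate 3. The cause was not tested. Calls in the 7 related lists were between 0 and 1 with 1 library left out, the 1 being *Sparc* without OVX replicate 2. All 5 members kept their place in the order of levels in 11 of 12 alternatives, and 3 of 5 did per kilobase of the longest protein-coding transcript. Same-numbered libraries did not deviate together (correlations of -0.11, -0.16 and -0.10), and 0 of 6 libraries correlated best with their own number (the highest was 0.22, between OVX replicate 2 and E2 replicate 1), so the numbers were not taken as pairs. With the replicate block, which in this balanced design cannot move a difference, 35 genes were past the threshold.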
